A study of Mus musculus with 24 samples.

Results

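The enzymes of the tricarboxylic acid (TCA) cycle and the itaconate synthase Acod1 were followed as 9 genes in mouse peritoneal macrophages. The 9 genes were Cs, Idh1, Idh2, Idh3a, Ogdh, Sucla2, Fh1, Mdh2 and Acod1. They were chosen by name for their place in or beside the cycle, with earlier results of these data known. Ensembl gene IDs of the count table were matched to mouse symbols, which found all 9 among 54532 features, and all 9 were among the 14692 genes with enough counts to test.

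RNA carrying poly(A) was sequenced from 24 libraries in 6 groups of 4. M0 cells were untreated controls, M1 cells received LPS (lipopolysaccharide) with IFN-γ (interferon-γ), and M2 cells received IL4 (interleukin 4). Each of these states was also studied with ONX-0914, an inhibitor of the immunoproteasome (a proteasome variant abundant in immune cells). Every replicate pooled peritoneal macrophages of 2 to 3 mice to reach 50000 cells, and the labels call the replicates independent. The sources used here give no mouse strain, age, sex or genotype, and no dose or duration of any treatment. A pool hides differences between single mice. Primary cells from the peritoneum are a model of that tissue's macrophages, and other macrophages were not measured.

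The TCA cycle runs in the mitochondrial matrix: citrate synthase joins acetyl-CoA to oxaloacetate, and the carbon returns to oxaloacetate through isocitrate, 2-oxoglutarate, succinyl-CoA, succinate, fumarate and malate. In macrophages activated by bacterial products the cycle is known to be rewired, with citrate and succinate building up. Acod1 diverts cis-aconitate, an intermediate between citrate and isocitrate, into itaconate, which has antimicrobial action and inhibits succinate dehydrogenase.

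The promoter of Acod1 is shown because this gene had by far the widest range of levels of the 9, and that of Cs beside it for contrast. RefSeq windows (GRCm38.p6), which run from 250 bases before to 50 after a start site, were found for 8 of the 9 genes, Idh3a being the exception. The 250 bases before each start are printed 5′ to 3′ on the plus strand. In Acod1 the capitals mark the kappaB-like palindrome GGAAATTCC, the interferon regulatory factor element AANTGAAA and the TATA box TATAAA. In Cs the capitals mark CG dinucleotides.
Acod1, chr14:103046762-103047011: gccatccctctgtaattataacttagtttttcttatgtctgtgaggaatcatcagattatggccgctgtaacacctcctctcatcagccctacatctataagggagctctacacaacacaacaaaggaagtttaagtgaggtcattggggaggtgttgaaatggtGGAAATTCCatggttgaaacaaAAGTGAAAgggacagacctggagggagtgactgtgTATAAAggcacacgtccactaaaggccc
Cs, chr10:128337477-128337726: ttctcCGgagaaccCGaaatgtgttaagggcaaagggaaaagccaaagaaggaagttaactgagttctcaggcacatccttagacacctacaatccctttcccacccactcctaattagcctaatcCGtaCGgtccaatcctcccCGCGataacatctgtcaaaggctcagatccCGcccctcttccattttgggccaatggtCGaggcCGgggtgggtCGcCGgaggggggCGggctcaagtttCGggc

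The 3 marked motifs of Acod1 begin at positions -85, -63 and -28 from its RefSeq start site and lie on the strand of the gene. The GENCODE gene model of Acod1 starts at 103046977, within the printed stretch, so these sources place the start differently. Searched on both strands, GGAAATTCC was present in 0.317% of 32851 mouse windows of this length, AANTGAAA in 6.58% and TATAAA in 13.6%, and the 3 matches do not overlap one another. The first and second of these were chosen after the Acod1 window had been read, so their presence there carries no weight. None of the 13 windows of the other 7 genes held any of the 3 motifs. The broader kappaB frame, GGG and CC with any 5 bases between, was present in 50.8% of all windows, and in Acod1 it began at -55. It also matched windows of 6 of the other 7 genes, all but Mdh2. The interferon motifs ISRE, GAAA repeated with any 2 bases between (3.44% of all windows), and GAS, TTCNNNGAA (8.30%), and the ERR element TCAAGGTCA (0.423%), named for a nuclear receptor of mitochondrial genes, matched no window of the 8 genes. The STAT6 motif, TTC and GAA with any 4 bases between (6.95% of all windows), matched in Fh1, and the nuclear respiratory factor 1 core GCATGCGC (2.71%) in 2 overlapping windows of Ogdh. The whole Acod1 window had 2 CG dinucleotides and 47% G or C, where the windows of the other 7 genes had 11 to 37 CG dinucleotides. These are matches of letters, and no binding was measured here.

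Total counts per library ranged from 18230924 to 22882972. In M1 replicate 2, unlike the rest of its group, mitochondria-encoded genes took 0.300% of its counts, against up to 1.14% in the others. Among the 9 genes it was above the other 3 M1 libraries for 6, below them for 2 and between them for 1. Some results are therefore also given without it, mainly those whose call changed. Macrophage markers summed to between 9688 and 13679 CPM (counts scaled to library size and composition) as group means. Peritoneal resident markers were uneven: Cd93 was abundant, while Timd4 had 0.180 CPM in M0. Fibroblast and mesothelium markers summed to between 802 and 988 CPM as group means, mostly from collagen genes and Dcn. B cell markers summed to between 42.7 and 118 CPM, dendritic cell, neutrophil and mast cell markers to at most 16.6 CPM each, and T and NK cell markers to between 18.4 and 23.97 CPM in M1 (nearly all Lck) and less elsewhere. The neutrophil markers S100a9 and Ly6g were at 0 in all groups.

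Polarization to M1 changed 8 of the 9 genes at an adjusted p under 0.05 (edgeR quasi-likelihood test, adjusted over all genes): Acod1, Cs, Mdh2 and Idh3a rose, and Idh1, Idh2, Fh1 and Ogdh fell. Of all genes tested, 68.8% were called in this comparison, 34.6% higher and 34.2% lower. The scaling factors for library composition ran from 0.793 to 0.849 in M1 and from 1.08 to 1.11 in M0. This sets M1 levels higher for the same counts and total. Before scaling, the M1 libraries together held 15069, 10683 and 2067 counts of Cs, Mdh2 and Idh3a, and the M0 libraries 15124, 11383 and 2496. The rises of these genes in M1 therefore depend on the scaling. M2 polarization raised Idh3a, Mdh2 and Fh1 and lowered Idh1 and Acod1, 5 of 9 against 36.2% of all genes (18.7% higher, 17.5% lower). Between M1 and M2, Acod1 and Cs were higher in M1 and Idh1, Idh2, Fh1, Idh3a and Ogdh were lower, 7 of 9 against 66.6% of all genes (32.2% higher, 34.4% lower). The median log2 difference of the 9 was 0.15 for M1 against M0, 0.12 for M2 against M0 and -0.17 for M1 against M2, where all tested genes had medians of -0.02, 0.01 and -0.04. Without M1 replicate 2, 9 of the 9 genes were called for M1 against M0 (Sucla2 higher in addition), 7 for M2 against M0 (Cs and Sucla2 higher in addition) and 8 for M1 against M2 (Mdh2 lower in addition), while the calls over all genes grew from 10114 to 10444, from 5315 to 6348 and from 9782 to 9991. These 3 comparisons share libraries, so their values are set side by side and are not independent. In bulk RNA, fewer cells of a type and less RNA per cell cannot be told apart.

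**Figure D1:**
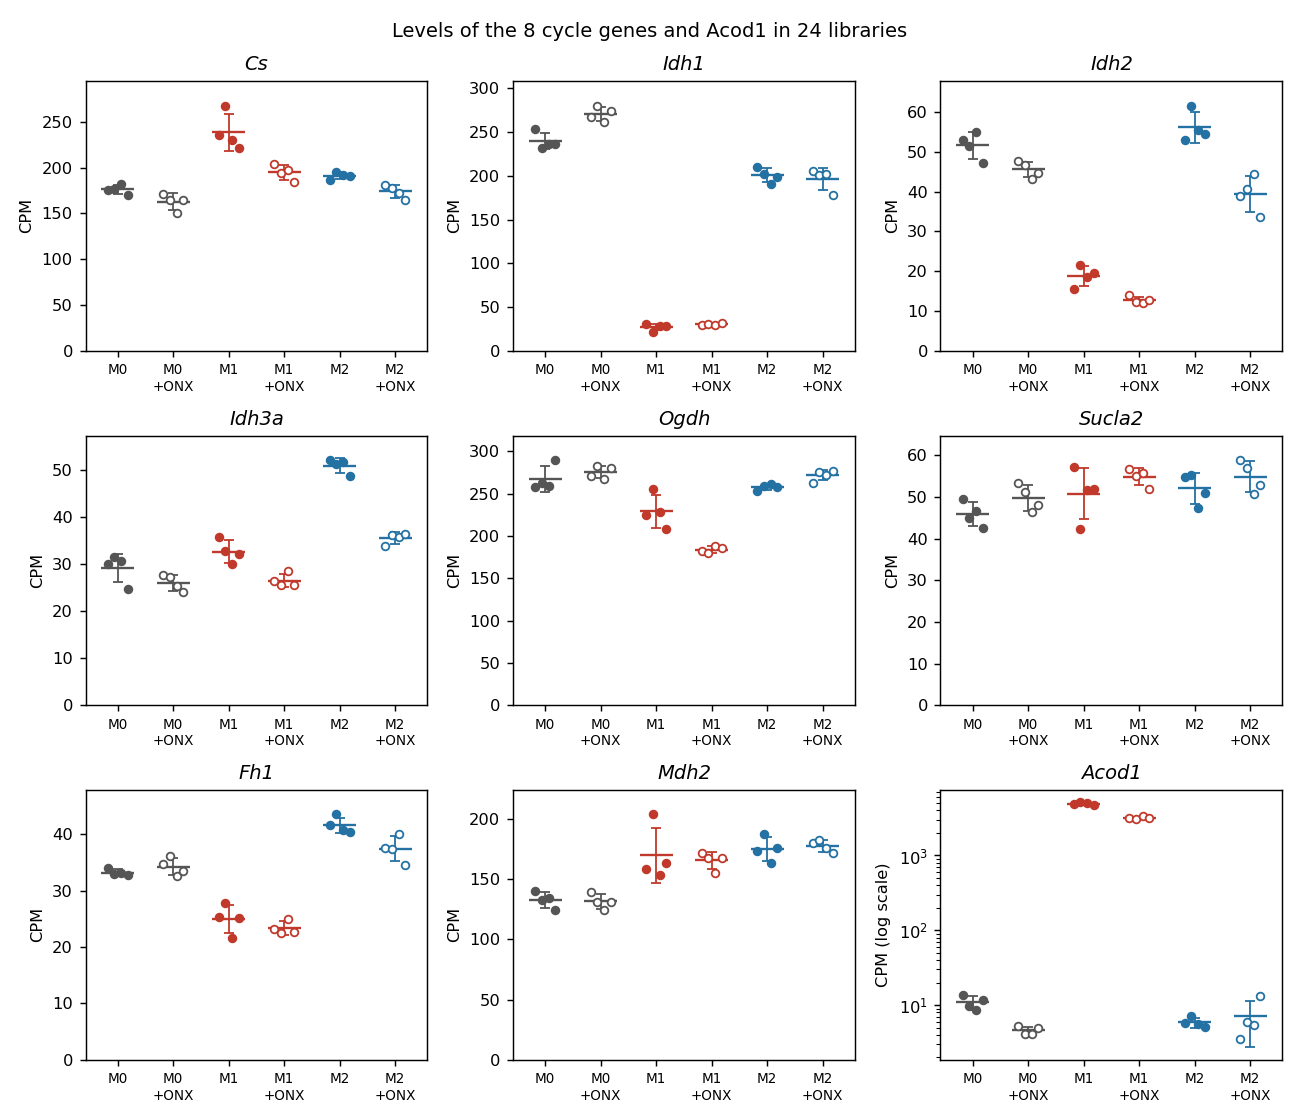
Each panel plots the level of 1 gene in CPM for every library in the 6 groups (filled points without and open points with ONX-0914, horizontal bars for means, error bars for SD, n = 4), with a log axis for Acod1 only. Idh1 lies between 21.9 and 31.4 CPM in the 8 M1 libraries and at 178 CPM or more in all others.

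Acod1 (ENSMUSG00000022126, GRCm38 chromosome 14, 103046977 to 103056573) was low in M0 and M2 beside its level in M1. Its levels were 13.7, 9.81, 8.50 and 11.8 CPM in the 4 M0 libraries, 4910.3, 5151, 4957 and 4718 CPM in M1, and 5.78, 7.15, 5.55 and 5.11 CPM in M2. Every M1 library exceeded every M0 and M2 library, and all M2 libraries lay below all M0 libraries. Acod1 rose by 8.81 ± 0.23 on the log2 scale (SE, 450.1-fold, adjusted p = 1.3e-22) in M1 and fell by 0.90 ± 0.22 (adjusted p = 0.00216) in M2. Corrected for exon length, as CPM per kilobase of all annotated exons, the Acod1 level was 45.7 ± 2.27 times the Cs level in M1 (SD, n = 4). In M0 it was 0.137 ± 0.0305 times the Cs level. The same per-kilobase level was 10.8 ± 0.437 times the sum of the 8 cycle genes in M1. That ratio was 0.0166 ± 0.00325 in M0. The 8 cycle genes are the 9 without Acod1, and they include Idh1 of the cytosol and peroxisome.

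With ONX-0914, Acod1 was lower in M0 and M1 cells. In M0 with the inhibitor it measured 5.26, 4.15, 4.11 and 4.88 CPM, and in M1 with the inhibitor 3144, 3104, 3324 and 3168 CPM. Neither group overlapped its control. The fall was 1.25 ± 0.23 on the log2 scale in M0 (2.38-fold lower, adjusted p = 0.000224) and 0.63 ± 0.16 in M1 (1.55-fold lower, adjusted p = 0.00216). Acod1 in inhibited M1 cells still stood above every M0 and M2 library.

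In M2 cells with ONX-0914, Acod1 measured 3.48, 5.98, 5.41 and 13.4 CPM. Replicate 4 was above all M2 control libraries, while the other 3 overlapped them. The log2 difference was 0.26 ± 0.24 (95% CI -0.22 to 0.74, adjusted p = 0.421), and without replicate 4 it was -0.25 (adjusted p = 0.254), so no direction can be given. Replicate 4 also held 4.76 CPM of the chemokine gene Ccl5, against 0.603 to 0.894 in the other 3, and 4.12 CPM of the interferon-induced Ifit1, against 1.15 to 1.51. Those genes were picked after their values were seen, and their part in the Acod1 value was not tested. The effect of ONX-0914 on Acod1 was 1.51 ± 0.33 higher on the log2 scale in M2 than in M0 (adjusted p = 0.00435), and 1.00 higher (adjusted p = 0.00427) without that library. The effect in M1 lay 0.62 ± 0.28 above that in M0 (CI 0.04 to 1.20, adjusted p = 0.131). That difference passed with no count filter (0.65, adjusted p = 0.000421), with a fit of the M0 and M1 groups alone (0.71, adjusted p = 0.00239) and without replicate 4 of inhibited M2 (0.62, adjusted p = 0.00918). The effect in M1 differed from that in M2 by -0.89 ± 0.28 (adjusted p = 0.0361), and by -0.38 (adjusted p = 0.216) without that library. This difference also failed (adjusted p from 0.0511 to 0.0803) without M2 replicate 1, 3 or 4, without replicate 3 of M1, or without replicate 1, 2 or 4 of inhibited M1. By mean level the order was M1, M1 with inhibitor, M0, M2 with inhibitor, M2 and M0 with inhibitor. The first 3 of these did not overlap one another, and each neighbouring pair from M0 down overlapped.

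Cs (ENSMUSG00000005683, chromosome 10, 128337734 to 128362479) encodes citrate synthase, the entry step of the cycle. M0 libraries held 176, 177, 182 and 169.7 CPM, M1 libraries 235, 268, 231 and 221 CPM, and M2 libraries 187, 196, 191 and 191 CPM. All M1 values lay above all others, with replicate 2 the highest. Cs was 0.44 ± 0.05 higher on the log2 scale in M1 than in M0 (adjusted p = 6.63e-08) and 0.32 ± 0.05 higher than in M2 (adjusted p = 1.04e-05). Its M2 to M0 difference of 0.12 ± 0.05 did not pass (adjusted p = 0.0961), but passed without M1 replicate 2 (adjusted p = 0.0256) and with the M0 and M2 libraries alone (0.11, adjusted p = 0.0488).

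ONX-0914 lowered Cs in M1 cells. Levels there were 204, 194, 197 and 184 CPM with the inhibitor, all below the M1 controls. The log2 change was -0.29 ± 0.05 in M1 (adjusted p = 8.34e-05), -0.11 ± 0.05 in M0 (adjusted p = 0.151) and -0.14 ± 0.05 in M2 (adjusted p = 0.0536). The change in M0 passed without M1 replicate 2 (adjusted p = 0.0447). That in M2 passed without M1 replicate 2 (adjusted p = 0.0108) or 4 (0.0447), replicate 3 of inhibited M0 (0.0454) or replicate 1 of inhibited M2 (0.0493), with DESeq2 size factors (-0.17, adjusted p = 0.0156) or its Wald test (adjusted p = 0.0073), and with the M2 libraries alone (-0.13, adjusted p = 0.0147). Without replicate 4 of inhibited M2, the lowest library of that group for Cs, the change in M2 was -0.111 (adjusted p = 0.161). The M1 effect was not shown to differ from that in M0 (difference -0.18, 95% CI -0.34 to -0.02, adjusted p = 0.112) or M2 (-0.16, CI -0.32 to 0.00322, adjusted p = 0.212). With the inhibitor, M1 libraries overlapped M2 controls. Cs shares 90.4% of its bases over 1617 positions with the gene Csl, which had 0 counts, and 91.9% over 469 with the pseudogene Gm48254, which had 20 counts against 88370 for Cs.

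Idh1 (ENSMUSG00000025950, chromosome 1, 65158616 to 65186500) encodes the isocitrate dehydrogenase of the cytosol and peroxisome, which makes NADPH. It showed the largest fall of the 9 genes in M1. M0 libraries held 253, 232, 237 and 237 CPM, M1 libraries 30.4, 21.9, 28.4 and 28.1 CPM, and M2 libraries 209.8, 203, 191 and 199 CPM. The 3 states did not overlap. Idh1 fell by 3.14 ± 0.07 on the log2 scale in M1 (8.80-fold lower, adjusted p = 6.12e-24) and by 0.26 ± 0.06 in M2 (adjusted p = 0.00213). The sum of the resident peritoneal markers moved the same way, 648 to 728 CPM in M0, 98.6 to 109.5 in M1 and 363 to 387 in M2, mostly through Cd93, and none of the 6 was at 0. The single markers were mixed. In M1 against M0, 1 was higher, 2 were lower and 3 were not called, with log2 differences from -3.11 to 5.82. In M2 against M0, 1 was higher, 1 was lower and 4 were not called. Of all genes, 68.8% and 36.2% were called in these comparisons. The part of these markers in the Idh1 difference was not tested.

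With ONX-0914 Idh1 measured 267, 280.4, 262 and 274 CPM in M0, above all M0 controls. The log2 change of 0.18 ± 0.06 passed narrowly (adjusted p = 0.0469) and held in only 4 of 24 fits that each left out 1 library: those without M0 replicate 1, M1 replicate 1, M1 replicate 2 or M2 with ONX-0914 replicate 4. In M1 the inhibited libraries held 29.5, 31.2, 29.7 and 31.4 CPM and overlapped the controls (log2 0.16 ± 0.07, adjusted p = 0.0755). Without M1 replicate 2, the lowest M1 library, that value was 0.07 (adjusted p = 0.362), and without M1 replicate 1 it was 0.22 and passed (adjusted p = 0.0207). In M2 they held 205, 201, 202 and 178 CPM (log2 -0.03 ± 0.06, CI -0.16 to 0.10, adjusted p = 0.764). Replicate 4 of that group was the lowest.

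Idh2 (ENSMUSG00000030541, chromosome 7, 80094846 to 80115392) encodes the NADP-dependent enzyme of the mitochondrial matrix. It was 53.1, 51.3, 55.0 and 47.1 CPM in M0, 15.5, 21.5, 18.4 and 19.5 CPM in M1, and 52.9, 61.6, 55.5 and 54.4 CPM in M2. M1 libraries lay far below both other states, which overlapped. Idh2 fell by 1.47 ± 0.09 on the log2 scale in M1 (2.76-fold lower, adjusted p = 1.15e-14), and its M2 to M0 difference was 0.12 ± 0.08 (adjusted p = 0.251).

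ONX-0914 lowered Idh2 in both polarized states. Inhibited M1 libraries held 14.0, 12.3, 11.9 and 12.7 CPM and inhibited M2 libraries 38.8, 40.7, 44.3 and 33.7 CPM, none overlapping its control. The fall was 0.55 ± 0.09 on the log2 scale in M1 (adjusted p = 2.73e-05) and 0.51 ± 0.08 in M2 (adjusted p = 9.9e-06). In M0 the inhibited libraries held 47.6, 46.8, 43.3 and 44.7 CPM and overlapped the controls (log2 -0.18 ± 0.08, adjusted p = 0.111), though the value passed without M1 replicate 2 (adjusted p = 0.0435) and with the M0 libraries alone (-0.17, adjusted p = 0.0284). The effect in M1 exceeded that in M0 by -0.37 ± 0.12 (adjusted p = 0.0345), and this difference did not pass without M1 replicate 2 (-0.30, adjusted p = 0.0602). The same held, with adjusted p from 0.0543 to 0.0759, without replicate 2 or 4 of M0, 1 or 2 of inhibited M0, 4 of M1, or 2, 3 or 4 of inhibited M1. It was also lost with no count filter (-0.34, adjusted p = 0.0523) and with a fit of the M0 and M1 groups alone (-0.28, adjusted p = 0.117). The effects in M1 and M2 differed by -0.04 ± 0.12 (CI -0.29 to 0.21, adjusted p = 0.889). Per kilobase, the ratio of Idh1 to Idh2 was 4.35 ± 0.293 in M0, 1.39 ± 0.363 in M1 and 3.35 ± 0.273 in M2, and with the inhibitor 5.56 ± 0.220, 2.24 ± 0.181 and 4.69 ± 0.325 (SD, n = 4). The ratio was above its control range in every inhibited group.

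Idh3a (ENSMUSG00000032279, chromosome 9, 54586334 to 54604661) encodes the catalytic subunit of the NAD-dependent isocitrate dehydrogenase, the form that drives the cycle forward. M0 libraries held 30.0, 31.5, 30.6 and 24.8 CPM, M1 libraries 35.7, 32.9, 30.0 and 32.2 CPM, and M2 libraries 52.2, 51.2, 51.7 and 48.8 CPM. M2 libraries stood above all others, and M0 and M1 overlapped. Idh3a rose by 0.80 ± 0.07 on the log2 scale in M2 (1.75-fold, adjusted p = 2.28e-10). Its rise in M1 was 0.16 ± 0.07 (adjusted p = 0.0407) and did not pass without M0 replicate 4 (0.09, adjusted p = 0.228) or M1 replicate 1 (0.12, adjusted p = 0.158), M1 replicate 4 (adjusted p = 0.0535) or M2 replicate 2 (adjusted p = 0.051). It was also lost with no count filter (0.14, adjusted p = 0.184) and with the M0 and M1 libraries alone (0.12, adjusted p = 0.291).

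ONX-0914 took Idh3a down in M1 and M2. Inhibited M2 libraries held 33.8, 36.1, 35.9 and 36.5 CPM, in a narrow range well below the M2 controls, and inhibited M1 libraries 26.4, 25.6, 28.6 and 25.5 CPM, below the M1 controls. The fall was 0.52 ± 0.07 on the log2 scale in M2 (adjusted p = 6.01e-07) and 0.30 ± 0.07 in M1 (adjusted p = 0.00106). The M1 call did not hold in a fit of the M1 libraries alone (log2 -0.21, adjusted p = 0.0543). In M0 the inhibited libraries held 27.7, 27.3, 25.3 and 24.1 CPM, overlapping the controls (log2 -0.16 ± 0.07, adjusted p = 0.105), and without M0 replicate 4, the lowest control, the value was -0.24 and passed (adjusted p = 0.0109). The effect was larger in M2 than in M0 by -0.36 ± 0.10 (adjusted p = 0.0238), and this did not pass without M0 replicate 4 (adjusted p = 0.0542), replicate 1 or 2 of inhibited M0 (0.0591 and 0.0605) or replicate 1 of inhibited M2 (0.0584), or with no count filter (-0.35, adjusted p = 0.0659). Every inhibited M2 library still lay above all M0 controls, and the range overlapped that of M1 controls.

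**Figure D2:**
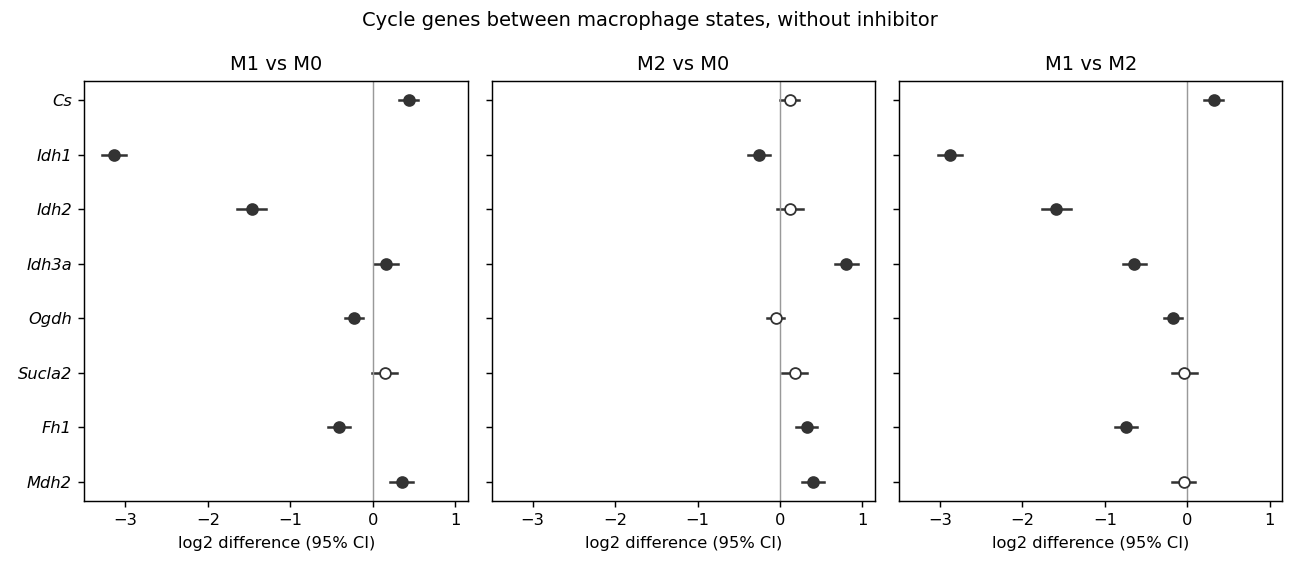
For the 8 cycle genes the log2 difference between states without inhibitor is plotted with its 95% CI, M1 against M0, M2 against M0 and M1 against M2, with filled points at an adjusted p under 0.05. Idh1 and Idh2 lie at -3.14 and -1.47 in M1 against M0, while the other 6 lie between -0.41 and 0.44.

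Ogdh (ENSMUSG00000020456, chromosome 11, 6291633 to 6356642) encodes the E1 component of the 2-oxoglutarate dehydrogenase complex. Its levels were 258, 263, 259 and 289.7 CPM in M0, 224, 256, 228 and 208 CPM in M1, and 253, 259, 262 and 258 CPM in M2. M1 libraries were below M0, and only M1 replicate 2 reached into the M2 range. Ogdh fell by 0.22 ± 0.05 on the log2 scale in M1 (adjusted p = 0.000447), and its M2 to M0 difference was -0.05 ± 0.05 (adjusted p = 0.475).

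The effect of ONX-0914 on Ogdh was called in M1 and differed from that in both other states. Inhibited M1 libraries held 182, 179.6, 189 and 186 CPM, below every other library of the series. Inhibited M0 libraries held 271, 283, 267 and 279.7 CPM, within reach of the M0 controls, and inhibited M2 libraries 263, 276, 272 and 277 CPM, all above the M2 controls. The log2 change was -0.32 ± 0.05 in M1 (adjusted p = 1.78e-05), 0.04 ± 0.05 in M0 (adjusted p = 0.625) and 0.08 ± 0.05 in M2 (CI -0.03 to 0.18, adjusted p = 0.267). The M1 effect lay below that in M0 by -0.36 ± 0.07 (adjusted p = 0.000839) and below that in M2 by -0.39 ± 0.07 (adjusted p = 0.00044). Both differences passed with each library left out in turn, at -0.30 and -0.33 without M1 replicate 2.

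Sucla2 (ENSMUSG00000022110, chromosome 14, 73525319 to 73596142) encodes the ADP-forming beta subunit of succinyl-CoA ligase. It had the flattest profile of the 9 genes, with group means between 46.0 and 54.9 CPM. M0 libraries held 49.6, 44.9, 46.8 and 42.7 CPM, M1 libraries 57.2, 42.4, 51.6 and 51.9 CPM, and M2 libraries 54.8, 55.4, 47.3 and 51.1 CPM. All neighbouring groups in the order of means overlapped. No comparison passed: the log2 difference was 0.15 ± 0.07 in M1 against M0 (CI -0.01 to 0.30, adjusted p = 0.0869), 0.18 ± 0.07 in M2 against M0 (adjusted p = 0.0566) and 0.08 to 0.12 with ONX-0914 in the 3 states. Without M1 replicate 2, the lowest M1 library, the M1 to M0 difference was 0.22 and passed (adjusted p = 0.00299), as it did without M0 replicate 1 (0.18, adjusted p = 0.0468). The M2 to M0 difference passed without M0 replicate 1 (0.22, adjusted p = 0.035), M1 replicate 1 (adjusted p = 0.043), M1 replicate 2 (adjusted p = 0.0126) or M2 replicate 3 (0.23, adjusted p = 0.0263), and with the M0 and M2 libraries alone (0.17, adjusted p = 0.0277).

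Fh1 (ENSMUSG00000026526, chromosome 1, 175600374 to 175625635) encodes fumarase, which turns fumarate into malate. M0 libraries held 34.0, 32.9, 33.1 and 32.7 CPM, M1 libraries 25.3, 27.8, 21.6 and 25.1 CPM, and M2 libraries 41.7, 43.5, 40.8 and 40.5 CPM. The states separated fully, with M0 between the others. Fh1 fell by 0.41 ± 0.06 on the log2 scale in M1 (adjusted p = 2.79e-06) and rose by 0.33 ± 0.06 in M2 (adjusted p = 0.000129), so that M1 was 0.74 ± 0.06 below M2 (log2 -0.74, adjusted p = 6.46e-11). With ONX-0914 no state passed: the log2 change was 0.04 ± 0.06 in M0, -0.09 ± 0.07 in M1 and -0.15 ± 0.06 in M2 (adjusted p = 0.677, 0.268 and 0.054). Inhibited M2 libraries held 37.6, 37.4, 40.0 and 34.6 CPM, all below the M2 controls. With each library left out in turn, the log2 change in M2 ran from -0.187 to -0.117. The M2 value passed with DESeq2 size factors (-0.19, adjusted p = 0.018) or its Wald test (adjusted p = 0.0103), with the M2 libraries alone (adjusted p = 0.0348), and without M1 replicate 2 (adjusted p = 0.0227), M1 replicate 3 (adjusted p = 0.0312) or replicate 3 of inhibited M2 (adjusted p = 0.0313).

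Mdh2 (ENSMUSG00000019179, chromosome 5, 135778480 to 135790398) encodes mitochondrial malate dehydrogenase, which regenerates oxaloacetate. M0 libraries held 140.0, 132, 134 and 124 CPM, M1 libraries 158, 204, 153 and 164 CPM, and M2 libraries 173, 187, 164 and 176 CPM. Both polarized states lay above M0 and overlapped each other. Mdh2 rose by 0.35 ± 0.07 on the log2 scale in M1 (adjusted p = 3.96e-05) and by 0.40 ± 0.07 in M2 (adjusted p = 2.51e-05). With each library left out in turn, the rise in M1 ran from 0.257 to 0.401. M1 and M2 differed by -0.05 ± 0.07 (adjusted p = 0.57), but by -0.14 (adjusted p = 0.0122) without M1 replicate 2. The log2 difference of Mdh2 with ONX-0914 was -0.01 ± 0.07 in M0, -0.04 ± 0.07 in M1 and 0.02 ± 0.07 in M2 (adjusted p = 0.932, 0.705 and 0.847), and the 95% CIs together ran from -0.17 to 0.16.

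Counted over the 9 genes, ONX-0914 changed 2 in M0 (Acod1 lower, Idh1 higher), 5 in M1 (Acod1, Idh2, Ogdh, Idh3a and Cs, all lower) and 2 in M2 (Idh3a and Idh2, both lower). Of all tested genes, 21.0% were called in M0 (9.54% higher, 11.4% lower), 44.3% in M1 (16.6% higher, 27.7% lower) and 36.4% in M2 (17.6% higher, 18.8% lower). The 9 genes had a median log2 change of -0.01 in M0, -0.29 in M1 and -0.03 in M2, beside -0.000824, -0.08 and -0.00118 over all genes. Without M1 replicate 2 the counts were 4 in M0 (1 higher, 3 lower, with Cs and Idh2 in addition), 5 in M1 and 4 in M2 (all lower, with Cs and Fh1 in addition), and the calls over all genes also grew, from 3079 to 4340 in M0 and from 5345 to 6384 in M2. Without that library the log2 changes in M1 were -0.23 for Cs, -0.26 for Ogdh and -0.48 for Idh2. Those of Idh3a and Acod1 were -0.30 and -0.61. The 8 cycle genes together held 174 ± 11.9 CPM per kb in M1 and 156 ± 2.40 in M1 with the inhibitor (SD, n = 4), ranges that did not overlap. The difference between the effect in M1 and in M0 was called for 2 of the 9 (Ogdh and Idh2, both lower) against 19.3% of all genes (6.90% higher, 12.4% lower), that between M2 and M0 for 2 (Acod1 higher, Idh3a lower) against 6.17% (3.44% higher, 2.74% lower), and that between M1 and M2 for 2 (Ogdh and Acod1, both lower) against 13.5% (3.80% higher, 9.68% lower).

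The other 21 of these 27 differences of effects did not pass, with adjusted p from 0.0829 to 0.984. Between M2 and M0, Idh2 differed by -0.33 ± 0.11 (adjusted p = 0.0829) and passed with the Wald test of DESeq2 (-0.35, adjusted p = 0.0334), with a fit of the M0 and M2 groups alone (-0.36, adjusted p = 0.0136), and without M1 replicate 2 (adjusted p = 0.0211) or replicate 3 of inhibited M2 (-0.39, adjusted p = 0.0385). Idh1 differed by -0.21 ± 0.09 (adjusted p = 0.207) and passed with those groups alone (-0.23, adjusted p = 0.0223) and without M1 replicate 2 (adjusted p = 0.0296), and Fh1 by -0.20 ± 0.09 (adjusted p = 0.22), passing with those groups alone (-0.22, adjusted p = 0.0498). Cs, Ogdh, Sucla2 and Mdh2 lay between -0.04 and 0.03 there. Between M1 and M0 the differences were -0.02 for Idh1, -0.14 for Idh3a, -0.14 for Fh1, -0.01 for Sucla2 and -0.02 for Mdh2, and between M1 and M2 they were 0.19, 0.22, 0.06, 0.04 and -0.06 in the same order. Their 95% CIs reach from -0.34 to 0.42.

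Marker genes of several cell types moved with the inhibitor too. The summed B cell markers ran from 106 to 114 CPM in M0 and from 61.0 to 67.1 with ONX-0914, from 77.0 to 89.6 and 39.6 to 44.7 in M1, and from 114 to 122 and 60.5 to 67.8 in M2, with 8, 7 and 8 of 9 tested markers lower. Macrophage markers summed to 13679 ± 942 CPM in M0 and 11684 ± 534 with the inhibitor, to 12693 ± 1323 and 9688 ± 198 in M1, and to 13589 ± 567 and 11122 ± 560 in M2. Singly, 2 of the 8 were higher and 2 lower in M0, and 1 was higher and 5 lower in M1 and in M2. Of all genes, 21.0%, 44.3% and 36.4% were called in M0, M1 and M2. The summed neutrophil markers ran from 8.68 to 10.1 CPM in M0 and from 13.4 to 14.4 with the inhibitor, and from 8.92 to 10.4 and 15.0 to 18.1 in M2, mainly through Mmp8. Of 3 neutrophil markers tested, 1 was higher and 1 lower in M0 and in M2. The part of these markers in the changes of the cycle genes and Acod1 was not tested.

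**Figure D3:**
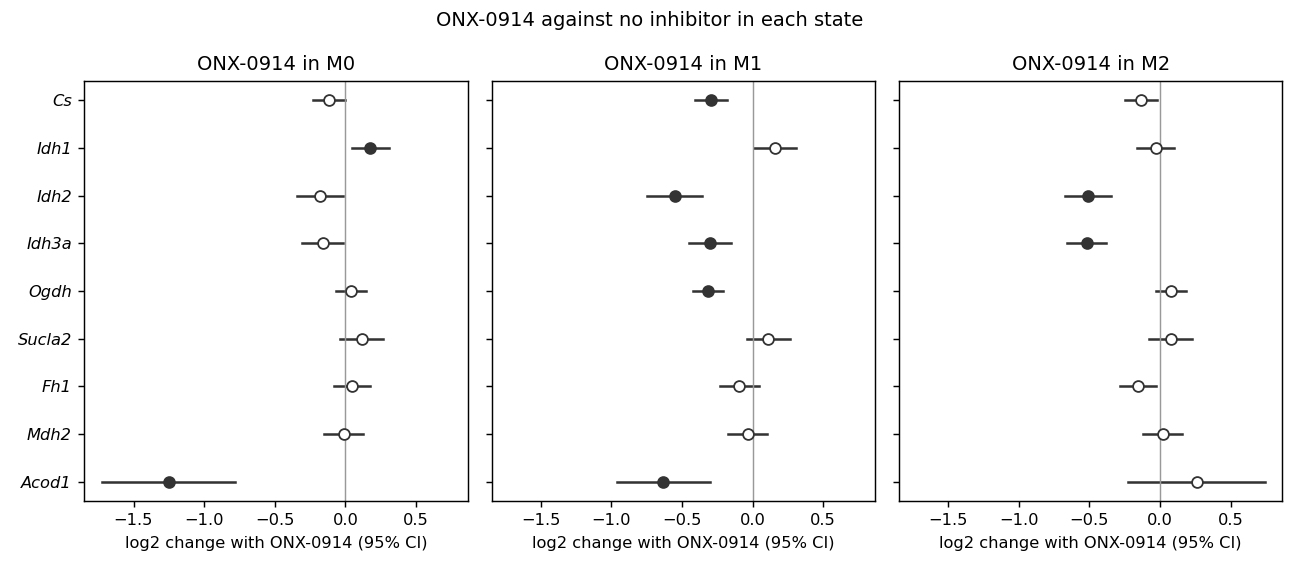
The log2 change with ONX-0914 is plotted with its 95% CI for the 9 genes in M0, M1 and M2 on a shared axis, with filled points at an adjusted p under 0.05. In M1, 5 genes lie left of zero with filled points, Acod1 at -0.63 and Idh2 at -0.55 being the lowest.

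Of 13 further genes of the cycle, all tested, 3 rose and 4 fell in M1 against M0, where 34.6% of all genes rose and 34.2% fell. In M2 against M0, 5 rose and 1 fell, where 18.7% and 17.5% of all genes did, and without M1 replicate 2 these counts were 9 and 1. Nothing is read from the counts of this list or of those that follow, which stand beside such shares of all genes. The falls in M1 included Suclg2, the GDP-forming beta subunit of succinyl-CoA ligase (log2 -1.38, adjusted p = 6.56e-12), Mdh1, the cytosolic malate dehydrogenase (-0.73, adjusted p = 3.5e-12), and Idh3g, a regulatory subunit of the enzyme of Idh3a (-0.48, adjusted p = 6.71e-07). Sdha, the flavoprotein of succinate dehydrogenase, stood at 205 CPM in M0, 195 in M1 and 224 in M2, and neither difference from M0 passed, while both did without M1 replicate 2 (-0.12 in M1 and 0.12 in M2, adjusted p = 0.0147 and 0.0117). Sdhb, the iron-sulfur subunit, rose in M2 (0.35, adjusted p = 0.000174). Per kilobase, the 13 genes together held 402 ± 18.5 CPM per kb in M0 and 386 ± 21.0 in M1, overlapping ranges, where the 8 cycle genes above held 250.2 ± 5.08 and 174 ± 11.9 without overlap. The fall in the sum of the 8 was carried by Idh1, the enzyme of the cytosol and peroxisome. Its mean was 86.5 CPM per kb in M0 and 9.81 in M1. The means of Cs, Mdh2, Idh3a and Sucla2 were higher in M1, and those of Idh2, Ogdh and Fh1 were lower.

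With ONX-0914, 2 of the 13 rose and 1 fell in M0, 4 rose and 3 fell in M1, and 3 rose and 5 fell in M2, where 21.0%, 44.3% and 36.4% of all genes were called. Mdh1 rose in all 3 states, by log2 0.35, 0.41 and 0.62 in M0, M1 and M2 (adjusted p = 2.47e-05, 8.06e-07 and 6.45e-10). Idh3b, another regulatory subunit of the NAD-dependent isocitrate dehydrogenase, rose by 0.29, 0.42 and 0.28 (adjusted p = 0.00176, 9.23e-06 and 0.00126), and Aco1, the cytosolic aconitase, fell by 0.19, 0.28 and 0.39 (adjusted p = 0.00813, 6.6e-05 and 4.75e-07). Dld, the E3 component that the 2-oxoglutarate and pyruvate dehydrogenase complexes share, rose in M1 (0.48, adjusted p = 6.97e-05) and M2 (0.26, adjusted p = 0.0218, a value chosen after it was seen), while Dlst, the E2 partner of Ogdh, rose in M1 (0.20, adjusted p = 0.00151). In M1, then, Ogdh was lower and both of its partner components were higher. M1 replicate 2 was low for Dld, at 76.6 CPM against 117 to 124 in the other M1 libraries. Sdha fell in M1 and M2 (-0.25 and -0.17, adjusted p = 0.000181 and 0.00868), as did Sdhb (-0.20 and -0.22, adjusted p = 0.0187 and 0.0104). Sdhb in M1 did not pass without M1 replicate 2 (-0.13, adjusted p = 0.0885), while Idh3g with the inhibitor in M1 did (0.17, adjusted p = 0.0237, against 0.08 and 0.355 with that library).

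In M1 and M2, then, Idh3a fell with the inhibitor while its partner subunit Idh3b rose. Per kilobase, the ratio of Idh3a to Idh3b was 0.274 ± 0.0326 in M0 and 0.199 ± 0.00760 with ONX-0914, 0.324 ± 0.0455 and 0.194 ± 0.0119 in M1, and 0.460 ± 0.0174 and 0.265 ± 0.0196 in M2 (SD, n = 4). Mdh2 over Mdh1 was 0.570 ± 0.0120 and 0.442 ± 0.0107 in M0, 1.21 ± 0.0797 and 0.887 ± 0.0427 in M1, and 0.804 ± 0.0227 and 0.531 ± 0.0155 in M2. Both ratios were lower with the inhibitor in each state, with no overlap between the libraries. These pairs were picked after their values were seen, and the ratios are given as a description. Sucla2 over Suclg2 was 5.01 ± 0.867 in M0 and 14.2 ± 1.18 in M1, a difference carried by Suclg2.

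**Figure D4:**
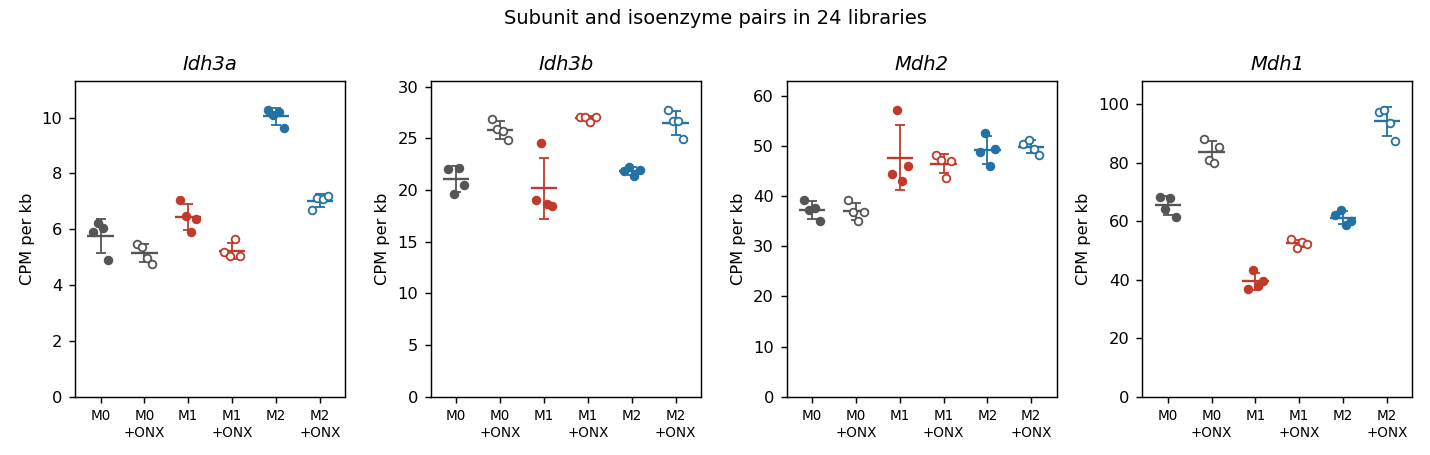
Idh3a, Idh3b, Mdh2 and Mdh1 are plotted in CPM per kb of exon for every library (filled without, open with ONX-0914; bars are means and error bars SD, n = 4). Idh3b and Mdh1 lie higher with the inhibitor in all 3 states, while Idh3a falls in M1 and M2 and Mdh2 stays between 34.9 and 57.2 CPM per kb throughout.

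Of 12 tested genes of pyruvate entry, 3 rose and 5 fell in M1 against M0 (68.8% of all genes called), and 2 rose and 3 fell in M2 (36.2%). Pdk2 and Pdk3 encode kinases that switch off pyruvate dehydrogenase: Pdk2 fell from 9.50 to 1.58 CPM in M1 (log2 -2.60, adjusted p = 1.04e-14) and Pdk3 rose from 12.9 to 29.7 CPM (1.21, adjusted p = 5.57e-12). With ONX-0914, 2 of the 12 rose in each state, and 1, 3 and 3 fell in M0, M1 and M2 (21.0%, 44.3% and 36.4% of all genes called). Without M1 replicate 2, 3 fell in M0. Another of these kinases, Pdk1, fell from 28.0 to 7.20 CPM in M1 (-1.96, adjusted p = 6.44e-16) and from 19.1 to 13.0 CPM in M2 (-0.56, adjusted p = 4.3e-06). Pdhb and Pdhx, structural genes of the same complex, rose in all 3 states, Pdhx by 0.33, 0.98 and 0.96 on the log2 scale (adjusted p = 0.000964, 4.78e-12 and 7.12e-12) and Pdhb by 0.26, 0.75 and 0.28 (adjusted p = 0.000258, 1.41e-12 and 3.46e-05).

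Among 10 tested genes of glutamine and aspartate anaplerosis, 1 rose and 6 fell in M1 against M0, and 1 rose and 4 fell in M2, beside 68.8% and 36.2% of all genes called. Ass1, argininosuccinate synthase, rose from 11.8 to 72.3 CPM in M1 (log2 2.61, adjusted p = 3.7e-15), while Glud1, glutamate dehydrogenase, and Got2, the mitochondrial aspartate aminotransferase, fell (-0.66 and -0.55, adjusted p = 3.07e-14 and 8.68e-10). ONX-0914 raised 1, 1 and 2 of the 10 and lowered 4, 5 and 5 in M0, M1 and M2, beside 21.0%, 44.3% and 36.4% of all genes called. Me1, the cytosolic malic enzyme, rose from 6.68 to 17.2 CPM in M0, from 5.91 to 34.2 in M1 and from 4.23 to 22.9 in M2 (log2 1.35, 2.53 and 2.44, adjusted p = 9.07e-10, 1.39e-15 and 4.23e-15). Gpt2, the mitochondrial alanine aminotransferase, fell in each (-0.32, -0.57 and -0.94, adjusted p = 0.0029, 7.29e-07 and 5.35e-11).

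Of 10 genes for citrate and dicarboxylate export and use, 5 rose and 3 fell in M1 against M0, and 3 rose and 3 fell in M2, beside 68.8% and 36.2% of all genes called. Slc25a22, a mitochondrial glutamate carrier, rose from 22.4 to 227 CPM in M1 (log2 3.34, adjusted p = 8.61e-24). Of the paralogous aspartate-glutamate carriers, Slc25a12 rose (1.78, adjusted p = 6.1e-19) and Slc25a13 fell (-1.19, adjusted p = 4.47e-12). With ONX-0914, 3 of the 10 fell in M0, 6 fell in M1, and 7 fell and 1 rose in M2, where 11.4%, 27.7% and 18.8% of all genes fell. Acly, which splits exported citrate, fell in all 3 (-0.25, -0.42 and -0.33, adjusted p = 0.000807, 1.84e-07 and 9.17e-06), and Slc25a10, the dicarboxylate carrier, fell by 0.86 in M1 (adjusted p = 4.81e-08).

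Only 4 of 7 genes for succinate and itaconate sensing and disposal had enough counts to test. In M1 against M0, 1 rose and 3 fell (68.8% of all genes called), and in M2 all 4 rose (18.7% of all genes higher). Clybl, an enzyme of the breakdown of citramalyl-CoA, which is formed from itaconate, fell from 3.99 to 2.31 CPM in M1 (log2 -0.79, adjusted p = 0.00113) and rose to 6.59 CPM in M2 (0.73, adjusted p = 0.00127). Auh, an enoyl-CoA hydratase, followed the same pattern (-0.96 and 0.85, adjusted p = 8.8e-12 and 6.2e-11). Slc13a3, a dicarboxylate transporter, rose in both states but stayed at or below 1.27 CPM as a group mean. With ONX-0914 the 4 had log2 differences between -0.24 and 0.18 in M0, none of which passed (adjusted p of 0.387 or more), while 1 rose and 2 fell in M1 and 3 fell in M2 (44.3% and 36.4% of all genes called), Clybl among those that fell (-0.77 in M1 and -0.61 in M2, adjusted p = 0.0103 and 0.00579).

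Nuclear-encoded markers of mitochondrial mass were followed for scale. Of 13 such genes, 10 rose and 1 fell in M1 against M0, and 7 rose in M2, where 34.6% and 18.7% of all genes rose. Cycs, cytochrome c, rose by log2 1.89 in M1 (adjusted p = 2.97e-21) and 0.66 in M2 (adjusted p = 2.81e-10). ONX-0914 raised 1, 6 and 2 of the 13 and lowered 3, 4 and 5 in M0, M1 and M2, beside 21.0%, 44.3% and 36.4% of all genes called. As shares of raw total counts, mitochondria-encoded transcripts were lower in M1. They held 1.71% to 1.78% in M0, 0.300% to 1.14% in M1 and 0.962% to 1.01% in M1 with the inhibitor. These shares lack the scaling for library composition that the log2 values carry, so the sizes cannot be set against each other. The part of the mass markers or of these transcripts in the levels of the cycle genes was not tested.

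**Figure D5:**
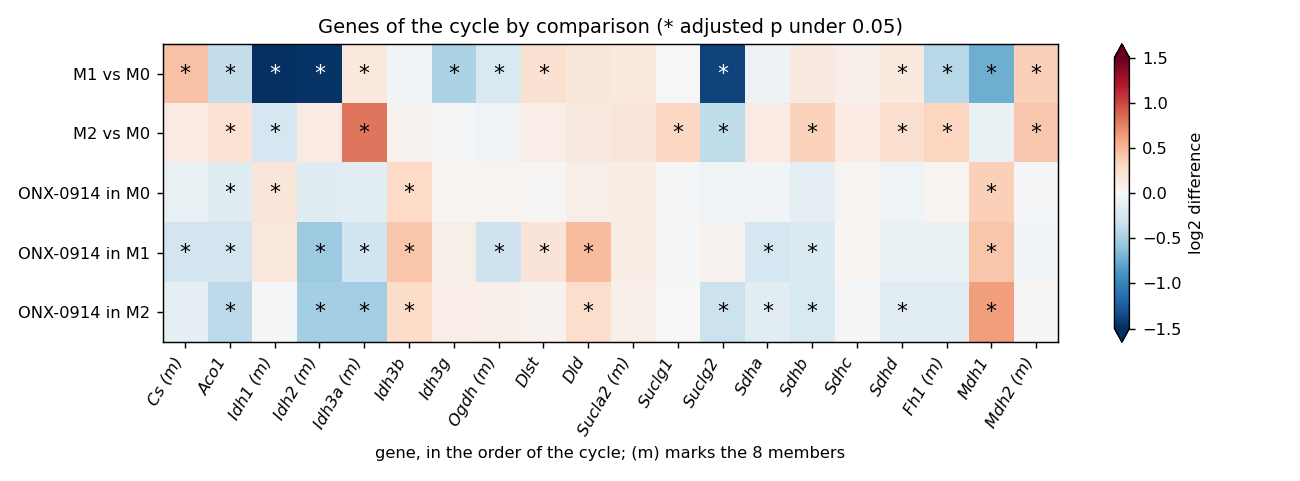
The log2 difference of cycle genes is shown as colour (red higher, blue lower, saturated at 1.5) in 5 comparisons, with an asterisk at an adjusted p under 0.05 and (m) beside the 8 genes described first. Idh1, Idh2 and Suclg2 are the darkest blue in M1 against M0, and with ONX-0914 Idh3b and Mdh1 are red in all 3 states.

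Genes with the most similar profiles were named by correlation of log2(CPM + 1) over the 24 libraries among 10007 genes with a group mean of at least 5 CPM. These coefficients mostly reflect differences between the 6 groups that all genes share, and are given as a description. Acod1 was closest to Slfn2 (Pearson r = 0.998), Slamf8 (0.997) and Parp14 (0.997), which had means of 1676, 1482 and 1399 CPM in M1. Idh1 was closest to Cxcr4 (0.997), Aph1c (0.995) and Deptor (0.995), each far lower in M1. Idh2 was closest to Acaa2 (0.994), a mitochondrial thiolase of fatty acid oxidation, then Atg7 (0.992) and Ttyh2 (0.99).

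Closest to Idh3a were Car6, Gda and Fyn (0.935, 0.933 and 0.93), and to Fh1 the lipid droplet gene Plin2 (0.982), Smpd2 (0.975) and Tspan5 (0.971). Mdh2 was closest to Nhp2 (0.955), Ms4a8a (0.938) and Uqcrc1 (0.932), a subunit of respiratory complex III. Cs was closest to Capg, Chmp2a and Nadk (0.969, 0.958 and 0.95), and Ogdh to Glg1, Slc35b4 and Rasal3 (0.965, 0.959 and 0.954). For Sucla2, the flattest gene, the highest coefficient was 0.866 (Copb1), followed by Exosc9 and Thumpd3 (0.831 and 0.83).

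Among the 9 genes themselves, Acod1 ran opposite to Idh1 over the 24 libraries (r = -0.989), and Idh1 ran with Idh2 (0.936). Once each library was taken relative to its group mean, those coefficients were -0.307 and -0.257, so the coefficients over all libraries rest on differences between the groups. Within groups, Idh1 with Sucla2 (0.734) and Cs with Mdh2 (0.728) were the highest, and without M1 replicate 2 they were 0.507 and 0.472. Sucla2 with Mdh2 changed from -0.142 to 0.670 when that library was left out.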

How the data were processed

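The deposited table holds raw counts, whole numbers of reads per Ensembl gene, for 24 libraries of mouse peritoneal macrophages; per the submitters' processing notes the tools were FastQC 0.11.9, cutadapt 2.8, Bowtie2 2.2.5 and Picard, with the mm10 build. The sources used here name no counting program, annotation release or strand setting. Bowtie2 does not split reads over introns, so reads across exon junctions would be missed if they were aligned to the genome. The submitters state that the raw reads are lost. Fh1 lies opposite Kmo, with 0 shared exon bases.

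Groups came from the treatment labels. Counts were fitted with edgeR 4.0.16 in R 4.3.3 (filterByExpr, TMM scaling, quasi-likelihood test, 6 group means over 24 libraries with 18 residual degrees of freedom, no block). The fit covered 14692 genes, which hold 99.9% of counts, and p-values were Benjamini-Hochberg adjusted over them in each comparison, with calls at an adjusted p under 0.05. SE was taken as the size of the log2 change over the root of its F, and intervals are 95%. Levels are TMM-scaled CPM, divided by the exon length of GENCODE M21 (GRCm38) where genes are compared. Features without a symbol held 0.0282% of counts. The script was tested on simulated data.

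Alternatives were DESeq2 1.42.0 (its size factors in edgeR, and its Wald test), other count filters, the libraries of each comparison alone, a replicate block and leaving out each library. The 9 genes and the pathway and marker lists were chosen with earlier results of these data known. All 9 genes are named in each comparison of 2 groups, and in the differences of effects some are given by their range alone. From each pathway list, up to 4 called genes per comparison with the largest absolute log2 change could be named, and Sdha, Sdhb, Dlst, Idh3b, Idh3g and Mdh1 whatever their result. The 3 genes with the closest profile to each of the 9 were named by Pearson correlation, leaving out predicted genes. Some results of the listed genes are not reported here. Other genes are said to be chosen after their values were seen.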

Additional observations from a re-analysis of the deposited data

Results flagged for a closer look

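In each of 54 combinations of gene and group the highest and lowest of the 4 libraries were compared with the rest, and 2 stood far off. Chance gives about 1 in 20 groups, 2.7 here. Idh1 in M2 with ONX-0914 was 177.754 CPM in replicate 4, where the other 3 libraries lay between 201 and 205. Ogdh in M0 was 289.699 CPM in replicate 4, where the other 3 lay between 258 and 263.

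The effect of ONX-0914 was compared between states for each of the 9 genes, and 6 of 27 differences passed (edgeR quasi-likelihood test, adjusted p under 0.05). Between M1 and M0 these were Idh2 (log2 -0.370738, adjusted p = 0.0345) and Ogdh (-0.357679, adjusted p = 0.000839). Between M2 and M0 they were Idh3a (-0.357444, adjusted p = 0.0238) and Acod1 (1.51156, adjusted p = 0.00435). Between M1 and M2 they were Ogdh (-0.391971, adjusted p = 0.00044) and Acod1 (-0.892125, adjusted p = 0.0361). The M0, M1 and M2 effects enter several of these differences, so the 6 are not independent.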

How the results depend on the processing

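Of 486 values recomputed under other settings, 437 kept their direction and side of the threshold, and of 1944 with 1 library left out, 1841 did. With ONX-0914, 1 of the 9 genes was called in M0 with DESeq2 size factors or no filter (1 to 4 with a library left out), and 4 in M2 with those size factors, the Wald test or the libraries of the comparison alone (2 to 4). For differences of effects the left-out counts were 1 to 3 for M1 against M0, 1 to 4 for M2 against M0 (1 with no filter, 5 and 1590 of all genes with the comparison alone, against 907) and 1 to 2 for M1 against M2 (1 with size factors or the Wald test). All genes called for M2 against M0 ran from 660 to 1672, the latter without M1 replicate 2. That library is in none of the groups compared there. It enters only through the spread and scaling estimated from all 24 libraries. The causes were not tested.
Small differences changed sign under other settings. With at least 1 CPM in 4 libraries required, Mdh2 was 0.002801 with ONX-0914 in M0 and 0.00499 for M1 against M2, and Sucla2 0.01365 for M1 against M2. Mdh2 with ONX-0914 was 0.05896 in M1 with those libraries alone, and -0.01319 and -0.01313 in M2 with DESeq2 size factors and the Wald test. For the effect in M1 less that in M0, size factors, the Wald test, no filter and the comparison alone gave 0.001975, 0.0007672, 0.007772 and 0.07325 for Idh1 and 0.01355, 0.01344, 0.01937 and 0.08462 for Sucla2, and no filter and the comparison alone gave 0.005045 and 0.067 for Mdh2. For the effect in M1 less that in M2, Idh2 was 0.002132, 0.002078 and 0.07188 with size factors, the Wald test and the comparison alone, and Mdh2 0.05661 with the last.

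With 1 library left out, the log2 change with ONX-0914 ran from -0.2507 to 0.4897 for Acod1 in M2, -0.05273 to 0.01625 for Idh1 in M2, and for Mdh2 from -0.04272 to 0.01385 in M0, -0.08094 to 0.06355 in M1 and -0.01063 to 0.06217 in M2. M1 against M2 ran from -0.0977 to 0.04058 for Sucla2 and -0.1435 to 0.0006484 for Mdh2. The effect in M1 less that in M0 ran from -0.1044 to 0.04249 for Idh1, -0.08 to 0.05805 for Sucla2 and -0.06793 to 0.07625 for Mdh2, and that in M2 less M0 from -0.05939 to 0.003967 for Cs and -0.005937 to 0.05191 for Ogdh. The effect in M1 less that in M2 ran from -0.1188 to 0.03067 for Idh2, -0.04012 to 0.09817 for Sucla2 and -0.005781 to 0.1143 for Fh1, and -0.1014 to 0.04294 for Mdh2. None of these passed in the reported fit.

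Same-numbered libraries of different groups correlated between -0.083 and 0.200 (mean 0.026), and differently numbered ones between -0.188 and 0.223 (mean -0.009). Of 24 libraries, 10 were closest to their own number. Correlations this weak cannot settle whether the replicate numbers pair the libraries. A replicate block brought Cs with ONX-0914 in M2 (-0.1371, adjusted p = 0.0377) and Sucla2 in M2 against M0 (0.1811, adjusted p = 0.03) past the threshold. With the M1 and M2 libraries fitted alone, the median of all genes for the difference of those effects moved from -0.07 to 0.05. Acod1 lies at 3.48 to 13.7 CPM outside M1, on 73 to 285 counts per library. Its log2 change with ONX-0914 had an SE of 0.23 in M0 and 0.24 in M2, against 0.16 in M1. These SE rest on a spread estimated over all 24 libraries, and do not measure the spread within each state. Without replicate 4 of inhibited M2, the adjusted p of the M1 change was 5.51e-06, against 0.00216 in the reported fit.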
